A study of Rattus norvegicus with 100 samples.

Results

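GW7647, a synthetic agonist of the nuclear receptor PPARα, was given to primary rat hepatocytes at 0.01 µM for 72 h, and these cultures were compared with cultures of the same rats at 0 µM for 72 h. The arrays were chosen by the concentration and time in their titles: 4 arrays at 0.01 µM and 4 at 0 µM, 8 of the 100 arrays of the series. Each array held the total RNA of 1 culture, and each of 4 rats (Rs627, Rs628, Rs631, Rs632) gave 1 culture to each group. All cultures stood on collagen IV under a Geltrex overlay in William E medium. The labels give neither the strain, age and sex of the rats nor whether any solvent went into the 0 µM cultures. The whole series covered 5 times and 6 concentrations in 30 groups, and the groups at 72 h held 4 arrays at 0.001 µM, 3 at 0.1 µM, 4 at 1 µM and 3 at 10 µM. The arrays named 13439 genes, and the 8843 whose log2 intensity passed 5 on 3 or more arrays entered the tests.

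PPARα pairs with the retinoid X receptor on DNA and switches on liver genes for the use of fatty acids. In rodents its agonists raise the enzymes of peroxisomal and mitochondrial β-oxidation, the ω-hydroxylases of the endoplasmic reticulum, fatty acid binding protein and acyl-CoA thioesterases. The pair of receptors binds a motif known as DR1, a direct repeat of the unit AGGTCA with 1 base between the copies.

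The promoter windows of genes that rose at 0.01 µM are shown where they hold that motif, since it is the motif that PPARα is known to bind. RefSeq windows on the GRCr8 build, from 250 bases before to 50 bases after the start of a gene, were found for 32 of the 35 genes that rose. A search of both strands for DR1 with at most 1 mismatch found it in 3 of the 32 (9.38%), against 147 of all 33469 windows (0.439%). The exact repeat was in 0 of the 32 and in 18 of all windows (0.0538%). The single unit, which a DR1 can hold, was in 8 of the 32 (25.0%) and in 5415 of all windows (16.2%). The 32 are 1 window per gene. All windows were neither reduced to 1 per gene nor limited to the genes tested. These shares thus come from unlike sets, and enrichment was not tested. A match describes these letters and does not show a binding site. The 250 bases before the start of the 3 genes with a match follow, 5′ to 3′ in the direction of the gene, with the match in capitals. These genes encode the mitochondrial very long-chain acyl-CoA dehydrogenase (chr10:55236706-55236955, minus strand), the peroxisomal thioesterase ACOT8 (chr3:173962189-173962438, minus strand) and liver fatty acid binding protein (chr4:104749090-104749339, plus strand).
Acadvl: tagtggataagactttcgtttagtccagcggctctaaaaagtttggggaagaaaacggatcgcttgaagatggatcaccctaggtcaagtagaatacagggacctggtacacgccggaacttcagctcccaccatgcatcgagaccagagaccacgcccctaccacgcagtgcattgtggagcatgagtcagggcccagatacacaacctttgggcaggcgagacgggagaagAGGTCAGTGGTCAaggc
Acot8: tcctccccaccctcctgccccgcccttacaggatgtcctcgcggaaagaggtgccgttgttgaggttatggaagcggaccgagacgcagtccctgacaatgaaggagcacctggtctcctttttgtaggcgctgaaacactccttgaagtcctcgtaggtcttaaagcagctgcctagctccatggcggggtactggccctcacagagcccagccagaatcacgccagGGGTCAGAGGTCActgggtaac
Fabp1: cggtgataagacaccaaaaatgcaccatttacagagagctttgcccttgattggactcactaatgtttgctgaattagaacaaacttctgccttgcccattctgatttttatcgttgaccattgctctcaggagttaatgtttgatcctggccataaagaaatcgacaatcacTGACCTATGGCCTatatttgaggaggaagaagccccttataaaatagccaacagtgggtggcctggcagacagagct
The match began 17 bases before the start in Acadvl, 22 in Acot8 and 77 in Fabp1. In Fabp1 the motif lies on the opposite strand, so that the capitals show its reverse complement.

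At 72 h, 35 of the 8843 genes were higher at 0.01 µM than at 0 µM (0.396%) and 2 were lower (0.0226%; limma, Benjamini-Hochberg adjusted p below 0.05, two-sided). Genes of fatty acid oxidation, binding and activation were among the largest rises, and 24 of the 35 stand in at least 1 of the pathway lists used here. The lists were chosen with earlier results of these data known. The share of all genes tested that stand in a list was not counted, so the 24 are a description only. The rises were small: their median was 0.64 on the log2 scale (1.56-fold) and the lowest was 0.28. Fabp1 (2.31) and Ehhadh (2.28) had the largest changes among rises whose 8 arrays all lay above 5, the floor below which a level is not read. Of the 35, 15 rose by less than 1.5-fold. All 35 were higher in each of the 4 rats, and in 34 of them the groups did not overlap. The 35 were picked by p on these same arrays, which favours both traits. The share of all genes without overlap was not counted. Over all genes tested, 868 (9.82%) were higher in each of the 4 rats and 3306 (37.4%) were lower in each, and the median change was -0.14. With the rat as a block, a term that takes out each animal's own level, 115 genes were higher (1.3%) and 85 lower (0.961%), and all 37 genes of the first test were among them.

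**Figure D1:**
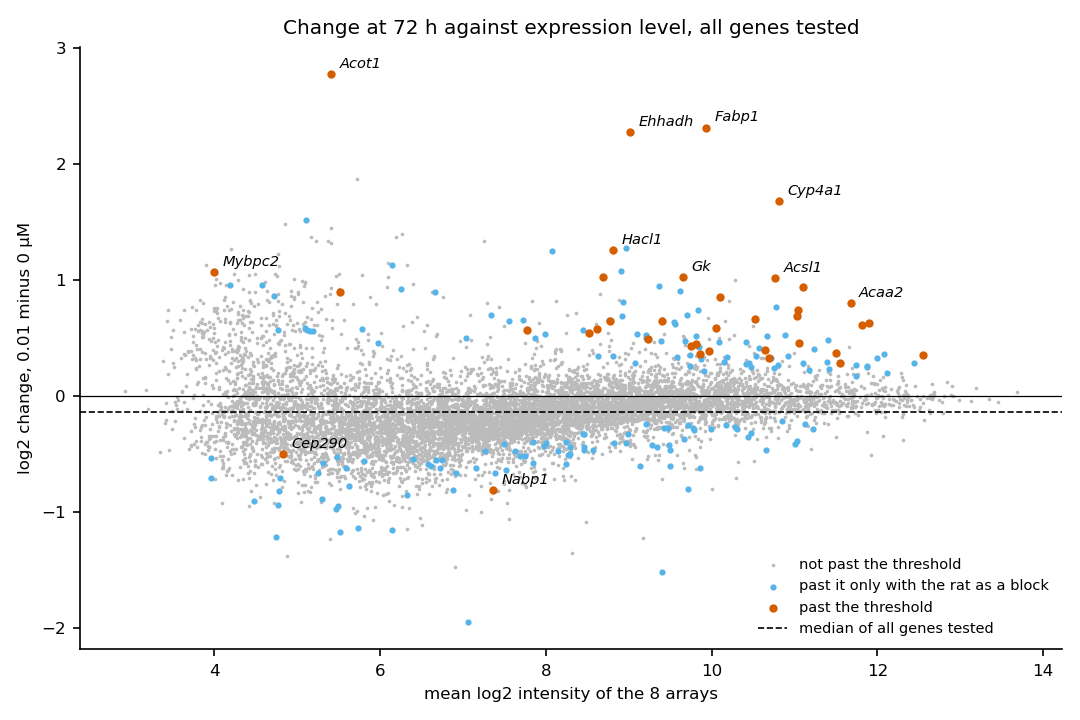
Log2 change at 72 h (0.01 minus 0 µM) on the y axis against the mean log2 intensity of the 8 arrays on the x axis, 1 point per gene tested. The point of Acot1 (2.77 as measured) rests on controls at or under the floor of 5, Fabp1 (2.31) and Ehhadh (2.28) follow, the 2 falls are Nabp1 and Cep290, and the dashed line, the median of all genes, lies at -0.14.

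The arrays at 0.01 µM had a lower 75th percentile of signal, but not a lower median. The 75th percentile of the log2 intensities was 6.63, 6.95, 6.66 and 6.67 in Rs627, Rs628, Rs631 and Rs632 at 0.01 µM, and 6.95, 7.0, 6.99 and 6.96 at 0 µM. It was lower in each of the 4 rats (6.73 ± 0.15 against 6.98 ± 0.02, SD, n = 4 and 4; exact permutation test, two-sided, p = 0.0571, where 0.0286 is the smallest value that 4 against 4 allow), and Rs628 stood near its control. The array median was 4.22 ± 0.02 at 0.01 µM and 4.19 ± 0.01 at 0 µM, higher in 3 of the 4 rats (exact permutation p = 0.114). The median change of all genes was -0.21, -0.02, -0.15 and -0.16 in the 4 rats in that order. It was -0.26 among 2707 genes with a mean log2 intensity from 5 to under 7, and -0.02 among 380 genes of 11 or more. The difference between the 3′ and 5′ probe sets of actin, a sign of RNA length, was 1.94 ± 0.17 at 0.01 µM and 1.66 ± 0.18 at 0 µM, higher in each of the 4 rats (exact permutation p = 0.0857). For GAPDH the same difference was 0.425 ± 0.043 and 0.348 ± 0.060, higher in 3 of the 4 rats (exact permutation p = 0.114). The part of signal and RNA length in the results was not tested. Shifting each array to a common 75th percentile moved the median change of all genes from -0.14 to 0.10, and then 68 genes were higher and 1 lower. Of the 35 rises, 22 passed after median centring, 75th percentile scaling and quantile normalization alike. Median centring ended the call of 11 (Acot2, Nudt7, Mlycd, Agpat2, Slc25a20, Mpc2, Dhrs4, Hsd17b10, Agmo, Cyp2c22 and Hsd17b4), quantile normalization that of Hmga2, Mybpc2 and Hsd17b4, and 75th percentile scaling that of Mybpc2. With the rat as a block and the common 75th percentile, 411 genes were higher and 25 lower.

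**Figure D2:**
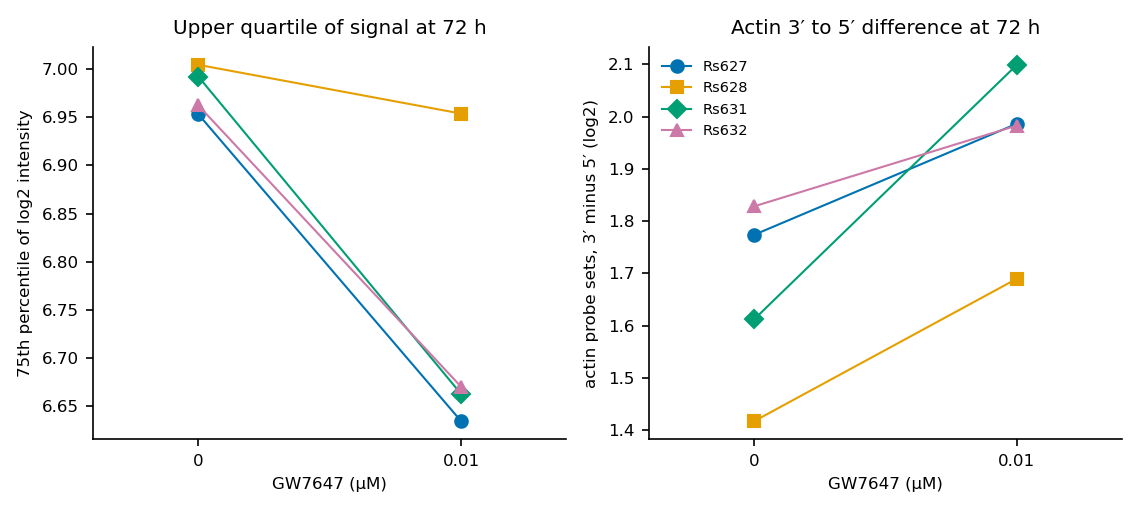
Left, the 75th percentile of log2 intensity of each array at 72 h, with the 2 arrays of a rat joined by a line. Right, the log2 difference between 3′ and 5′ probe sets of actin on the same arrays. The signal falls from 0 to 0.01 µM in each rat, least in Rs628 (7.0 to 6.95), and the actin difference is higher at 0.01 µM in each rat.

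In fits with no rat term, the calls rested on all 4 rats. No fit left out a rat with the rat as a block. Without Rs627 12 genes were higher, without Rs628 29, without Rs631 24 and without Rs632 12. The 9 genes that passed whichever rat was left out were Ehhadh, Fabp1, Cyp4a1, Acsl1, Acaa2, Ech1, Acat1, Hadha and Fbp1. The other 26 lost the call without at least 1 rat. Their direction did not turn, and the lowest change of any of the 35 without a rat was 0.26. The labels give the plate position of the Rs627 array at 0.01 µM to a second array. The position of the Rs628 array recurs only with a suffix, and was counted as repeated. Without the arrays at repeated positions, the 0.01 µM arrays of Rs631 and Rs632 remained beside the 0 µM arrays of all 4 rats. The groups then no longer held the same rats, and 258 genes were higher and 743 lower.

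Acyl-CoA thioesterases split fatty acyl-CoA into free fatty acid and coenzyme A. Acot1 is the cytosolic enzyme. Its log2 intensity at 0 µM was 4.98, 4.24, 3.70 and 3.17 in Rs627, Rs628, Rs631 and Rs632, all at or under the floor of 5. At 0.01 µM it was 7.36, 7.48, 6.75 and 5.60. The groups did not overlap, and Rs632 was lowest in both. Acot1 rose at least 3.47-fold against the floor (log2 change as measured 2.77 ± 0.65 SE, adjusted p = 0.0211). Its call was lost whichever rat was left out (adjusted p from 0.0649 without Rs628 to 0.286 without Rs631), while its change stayed between 2.62 and 2.91.

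The mitochondrial thioesterase Acot2 had 10.54, 10.31, 11.14 and 10.76 at 0 µM and 11.44, 11.02, 11.68 and 11.36 at 0.01 µM. It was the only rise whose groups overlapped, since Rs631 at 0 µM lay above Rs628 at 0.01 µM, and each rat's own pair moved up by 0.54 to 0.90. It rose 1.61-fold (0.69 ± 0.16, adjusted p = 0.0248; 0.696 without Rs627). The peroxisomal Acot8 rose 1.48-fold (0.57 ± 0.13, adjusted p = 0.0191; 0.66 without Rs627). In all, 3 of the 6 thioesterases tested rose, and the median of the 6 was 0.55. Acot7, the brain-type enzyme, was 1.45-fold higher without passing (adjusted p = 0.189; 0.0294 with the rat as a block). Acot1 and Acot2 are close paralogs, so that a probe set may read both.

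Fabp1, the fatty acid binding protein of the liver, carries fatty acids through the cytosol. Its log2 intensity was 9.69, 8.15, 8.88 and 8.39 at 0 µM and 11.55, 10.98, 11.04 and 10.80 at 0.01 µM. Every treated culture lay above every control, and the treated values spread less (SD 0.32 against 0.68). Fabp1 rose 4.97-fold (2.31 ± 0.39, adjusted p = 0.000109). Acsl1, which activates long-chain fatty acids to acyl-CoA, rose 2.02-fold, from 10.29, 10.11, 10.24 and 10.41 to 11.49, 11.20, 10.99 and 11.42 (1.01 ± 0.16, adjusted p = 5.63e-05). A second probe set of Acsl1 above the floor in all 8 arrays differed by 1.25. It was 1 of 8 such other probe sets, of 6 genes that passed, all with the same sign as the gene. The smallest difference among these was 0.20, for Pgrmc2, higher in 3 of the 4 rats, where the probe set used differed by 0.43. In the list of uptake, binding and activation 2 of 20 rose, with a median of 0.19. With the rat as a block Slc27a2, Acsl5 and Dbi were also higher (adjusted p = 0.00542, 0.00542 and 0.00313, log2 changes 0.32, 0.32 and 0.19). The first of these is a very long-chain fatty acid transporter, the next an acyl-CoA synthetase and the last the acyl-CoA binding protein.

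Peroxisomal β-oxidation shortens very long-chain fatty acids. Ehhadh, its bifunctional enzyme, had 7.81, 7.53, 8.41 and 7.77 at 0 µM and 10.64, 10.00, 10.37 and 9.62 at 0.01 µM. The groups stood more than 1 log2 unit apart. Ehhadh rose 4.85-fold (2.28 ± 0.24) and had the lowest adjusted p of all genes (4.61e-10, and 1.45e-05 at most without a rat). Hacl1, the lyase of α-oxidation, rose 2.39-fold, from 8.20, 8.08, 8.35 and 8.10 to 9.84, 9.35, 9.13 and 9.43 (1.25 ± 0.24, adjusted p = 0.00109; 0.0712 without Rs632). Ech1, a dienoyl-CoA isomerase of mitochondria and peroxisomes, moved by 0.70 to 0.80 in the 4 rats (1.67-fold, 0.74 ± 0.11, adjusted p = 1.37e-05). Hsd17b4, the D-bifunctional protein, had the smallest rise (1.22-fold, 0.28 ± 0.07, adjusted p = 0.0455), which was lost whichever rat was left out (adjusted p from 0.0923 without Rs628 to 0.525 without Rs632).

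In the list of peroxisomal oxidation and peroxisome assembly 4 of 19 rose and none fell, 7 were higher with the rat as a block, and the median was 0.24. Abcd3, a peroxisomal transporter of fatty acids, and Pex11a, a division factor of peroxisomes, were 1.38-fold and 1.58-fold higher without passing (adjusted p = 0.229 and 0.360; 0.00583 and 0.0436 with the block). Catalase (Cat) differed by 0.19 (adjusted p = 0.369). Outside the list, Nudt7, a diphosphatase of peroxisomal coenzyme A, rose 1.56-fold (0.64 ± 0.16, adjusted p = 0.0320; from 0.0712 without Rs628 to 0.473 without Rs627), and Dhrs4, a carbonyl and retinal reductase of peroxisomes, rose 1.3-fold (0.38 ± 0.08, adjusted p = 0.00805; 0.177 without Rs631).

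**Figure D3:**
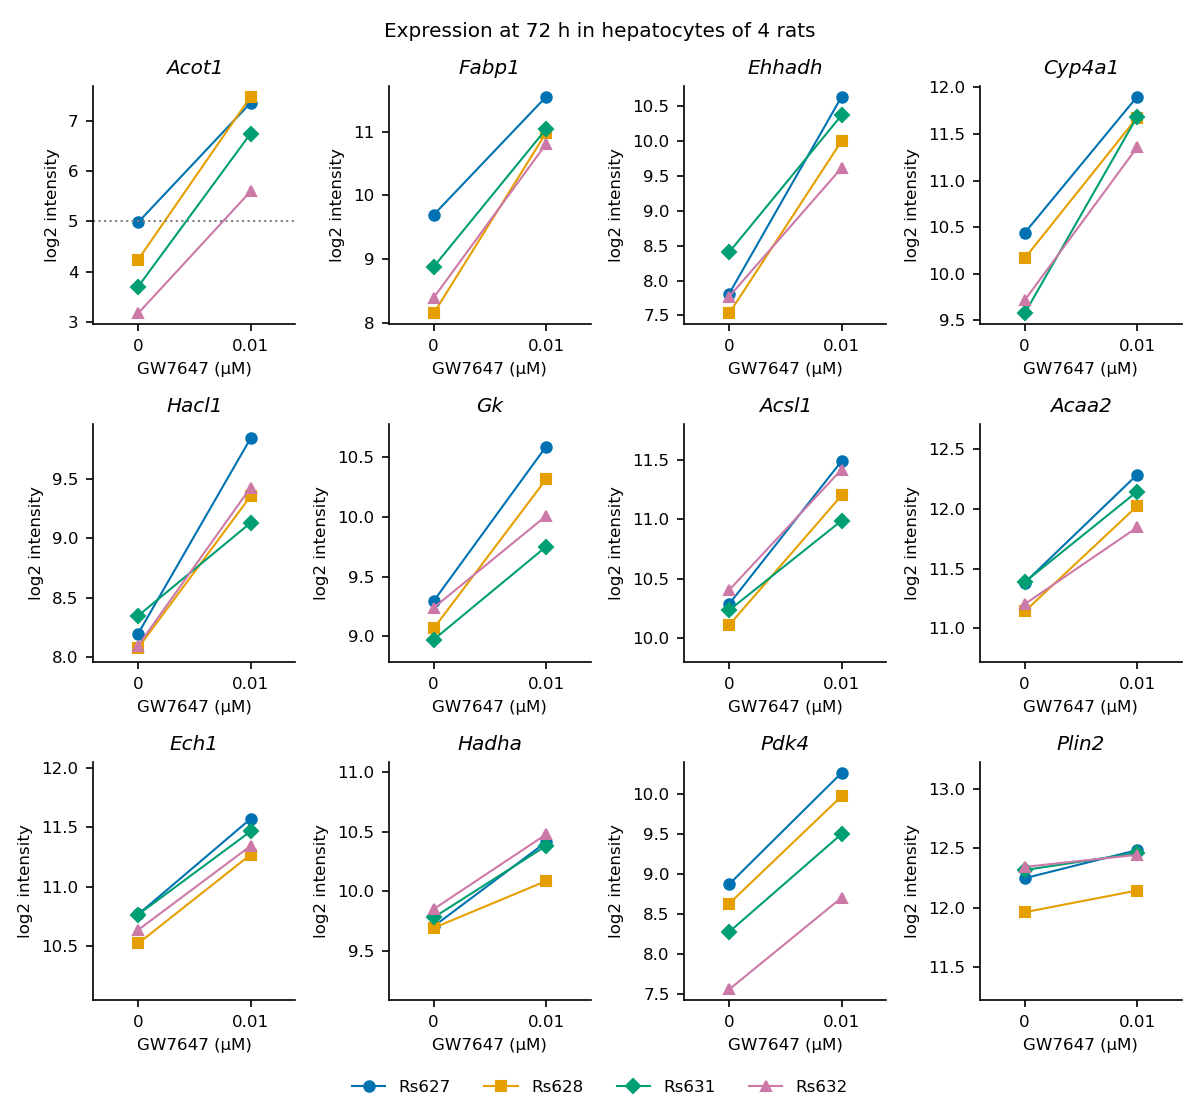
Log2 intensity of 12 genes at 0 and 0.01 µM GW7647 after 72 h, 1 point per array and 1 line per rat; y axes differ between genes, and the dotted line marks the floor of 5. Ehhadh, Fabp1 and Cyp4a1 rise without overlap of the groups, while Pdk4 goes up by 1.15 to 1.39 in each rat from starting levels that range from 7.56 to 8.87, so that its groups overlap.

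The ω-hydroxylases of the cytochrome P450 4A family start the breakdown of fatty acids from the methyl end. Cyp4a1 had 10.44, 10.16, 9.57 and 9.71 at 0 µM and 11.90, 11.68, 11.68 and 11.35 at 0.01 µM. The rat with the lowest control (Rs631) had the largest step, 2.11, and the treated cultures lay close together. Cyp4a1 rose 3.20-fold (1.68 ± 0.27, adjusted p = 3.31e-05). Cyp4a3, a related hydroxylase whose transcripts resemble those of Cyp4a1, rose 1.92-fold (0.94 ± 0.20, adjusted p = 0.00518; 0.139 without Rs632). These were the 2 rises among 6 genes tested, whose median was 0.21.

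Mitochondrial β-oxidation gave the most rises, 6 of 21 genes tested and no fall. All 21 were higher in each of the 4 rats, against 9.82% of all genes, and their median was 0.45. Acaa2, the thiolase of the last step, had 11.38, 11.14, 11.39 and 11.20 at 0 µM and 12.29, 12.02, 12.15 and 11.85 at 0.01 µM (1.74-fold, 0.80 ± 0.13, adjusted p = 3.28e-05). Hadha, a subunit of the trifunctional protein, had 9.70, 9.69, 9.78 and 9.85 and then 10.41, 10.09, 10.38 and 10.48 (1.5-fold, 0.58 ± 0.09, adjusted p = 1.48e-05). In both genes the lowest treated value lay above the highest control. Acadm, the medium-chain acyl-CoA dehydrogenase, rose 1.58-fold (0.66 ± 0.15, adjusted p = 0.0203; 0.469 without Rs632). Eci1, an enoyl-CoA isomerase, rose 1.53-fold (0.61 ± 0.11, adjusted p = 0.000593; 0.0746 without Rs631). Acadvl, whose promoter window is shown above, rose 1.37-fold (0.45 ± 0.09, adjusted p = 0.00262; 0.177 without Rs627). Slc25a20, the carnitine carrier of the inner membrane, rose 1.40-fold (0.49 ± 0.12, adjusted p = 0.0328; 0.517 without Rs632).

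With the rat as a block 16 of the 21 passed, all higher. Among the 10 that passed only so were Crat, carnitine acetyltransferase (0.70 ± 0.19, adjusted p = 0.0896; 0.00535 with the block), Acads, the short-chain dehydrogenase (0.57 ± 0.15; 0.0695 and 0.000709), and Decr1, a dienoyl-CoA reductase (0.48 ± 0.13; 0.0809 and 1.63e-06). Cpt1a, the liver form of the enzyme that loads long-chain fatty acids onto carnitine, was 1.35-fold higher and did not pass either way (0.43 ± 0.24, adjusted p = 0.404; 0.109 with the block). Cpt1b, the muscle form, had 7.02, 5.29, 6.28 and 6.30 at 0 µM and 8.21, 6.06, 6.90 and 7.28 at 0.01 µM. Its groups overlapped although each rat's pair differed by 0.63 to 1.19 (0.89 ± 0.35, adjusted p = 0.305; 0.0229 with the block).

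Further genes of ketone body, lipid, glycerol and glucose metabolism rose. Acat1, the mitochondrial acetoacetyl-CoA thiolase that serves ketone bodies, rose 1.56-fold, from 9.09, 8.99, 9.35 and 8.87 to 9.77, 9.54, 9.90 and 9.66 (0.64 ± 0.11, adjusted p = 0.000104). It was the 1 rise among 4 ketone body genes, whose median was 0.01 and of which 2 were lower in each rat. One of these, Oxct1, the enzyme that starts ketone body use, lay near the floor (log2 change as measured -0.91 ± 0.42, adjusted p = 0.360; 0.0368 with the block). Mlycd, which degrades the CPT1 inhibitor malonyl-CoA, rose 1.49-fold (0.58 ± 0.14, adjusted p = 0.0261; 0.352 without Rs632). Gk, glycerol kinase, had 9.29, 9.06, 8.97 and 9.24 at 0 µM and 10.59, 10.32, 9.75 and 10.01 at 0.01 µM, with no overlap (2.04-fold, 1.03 ± 0.25, adjusted p = 0.0261; 0.316 without Rs627). Fbp1, fructose-1,6-bisphosphatase of gluconeogenesis, rose by 0.34 to 0.54 in the 4 rats (1.37-fold, 0.46 ± 0.08, adjusted p = 0.000355). Agpat2, which acylates lysophosphatidic acid, rose 1.46-fold (0.55 ± 0.13, adjusted p = 0.0315; 0.490 without Rs627) as the 1 rise among 19 lipogenesis genes, whose median was 0.18.

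Some well-known PPARα targets did not pass. Pdk4, which restrains pyruvate dehydrogenase, had 8.87, 8.63, 8.28 and 7.56 at 0 µM and 10.26, 9.97, 9.50 and 8.70 at 0.01 µM. Its difference of 1.28 ± 0.42 was nearly the same in each rat and missed the threshold without the block (adjusted p = 0.236; 0.00752 with it). Angptl4, a secreted inhibitor of lipoprotein lipase, differed by 0.43 ± 0.15 with no overlap (10.28, 10.25, 10.28 and 10.12 against 10.73, 10.44, 10.81 and 10.68; adjusted p = 0.272; 0.0862 with the block). Fgf21, a hormone of fasting, differed by 0.64 ± 0.36 (adjusted p = 0.402), of which Rs627 gave 1.38 and the other rats 0.31 to 0.45. Vnn1, a pantetheinase, differed by 0.27 ± 0.19 (adjusted p = 0.462) and Plin2, a lipid droplet coat protein, by 0.17 ± 0.07 (adjusted p = 0.354). Ppara itself lay at or under 5 in 7 of the 8 arrays, and its value has no direction here. Among 24 other PPARα-responsive genes 2 rose, Gk and Mlycd, and the median was 0.30.

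Drug-metabolising enzymes gave 2 rises of 23 in their list, with a median of 0.32. Cyp3a23-3a1, a steroid and drug hydroxylase with close paralogs, had 11.36, 11.50, 11.80 and 11.68 at 0 µM and 12.35, 12.15, 12.01 and 12.36 at 0.01 µM (1.55-fold, 0.63 ± 0.13, adjusted p = 0.00629; 0.443 without Rs627). Its step was 0.98 in Rs627 and 0.21 in Rs631. Cyp2c22 rose 1.28-fold (0.36 ± 0.08, adjusted p = 0.0129; 0.682 without Rs627). Cyp2d3, outside the list, rose 1.81-fold (0.85 ± 0.20, adjusted p = 0.0211; 0.492 without Rs627). Por, the reductase that feeds electrons to these enzymes, was 1.54-fold higher without passing (adjusted p = 0.114; 0.000553 with the block).

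The rises outside the pathway lists included Aig1, a hydrolase of fatty acid esters of hydroxy fatty acids, which had 8.31, 8.62, 7.92 and 7.85 at 0 µM and 9.37, 9.34, 9.06 and 9.02 at 0.01 µM (2.03-fold, 1.02 ± 0.23, adjusted p = 0.0120; 0.351 without Rs632). Agmo, which cleaves ether lipids, rose 1.29-fold (0.36 ± 0.09, adjusted p = 0.0213; 0.351 without Rs632). Mpc2, a subunit of the mitochondrial pyruvate carrier, rose 1.31-fold (0.39 ± 0.09, adjusted p = 0.0262; 0.551 without Rs632), and Hsd17b10, a mitochondrial dehydrogenase of isoleucine breakdown, rose 1.29-fold (0.37 ± 0.09, adjusted p = 0.0253; 0.321 without Rs627). Pgrmc2, a haem-binding membrane protein, rose 1.35-fold (0.43 ± 0.09, adjusted p = 0.00805; 0.300 without Rs627), and Tmem205 rose 1.25-fold (0.32 ± 0.06, adjusted p = 0.00128; 0.116 without Rs632).

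Hmga2 and Mybpc2, low on the scale, stood apart from the others. Hmga2, a chromatin protein of growing cells, had 5.15, 4.82, 5.07 and 5.22 at 0 µM and 5.62, 5.59, 6.58 and 6.05 at 0.01 µM (1.86-fold, 0.90 ± 0.22, adjusted p = 0.0263; 0.614 without Rs631). Mybpc2, a myosin-binding protein of fast muscle, was above the floor of 5 in 1 array of 8, so no fold is given (log2 change as measured 1.07 ± 0.26, adjusted p = 0.0320; 0.478 without Rs627). Both calls were lost whichever rat was left out.

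The 2 falls were Nabp1, a single-strand nucleic acid binding protein, and Cep290, a protein of centrosome and cilium. Nabp1 had 7.83, 7.73, 7.89 and 7.63 at 0 µM and 6.59, 7.39, 7.03 and 6.81 at 0.01 µM, with no overlap (log2 change -0.81 ± 0.21, adjusted p = 0.0417; 0.821 without Rs627). It missed the threshold under each of the 3 scalings, and its change was -0.57 with a common 75th percentile. Cep290 had 5.08, 5.06, 5.14 and 5.03 at 0 µM and was under 5 in the 4 treated arrays, so that its fall was at least 1.05-fold (log2 change as measured -0.50 ± 0.13, adjusted p = 0.0415; 0.614 without Rs631). It missed the threshold after quantile normalization and 75th percentile scaling. Leaving out Rs628, whose treated array had the 75th percentile of the controls, gave 20 falls, and leaving out any other rat gave 0. Of the 85 genes that were lower with the rat as a block, 16 passed with the block after each of the 3 scalings, and of the 115 that were higher, 83 did.

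**Figure D4:**
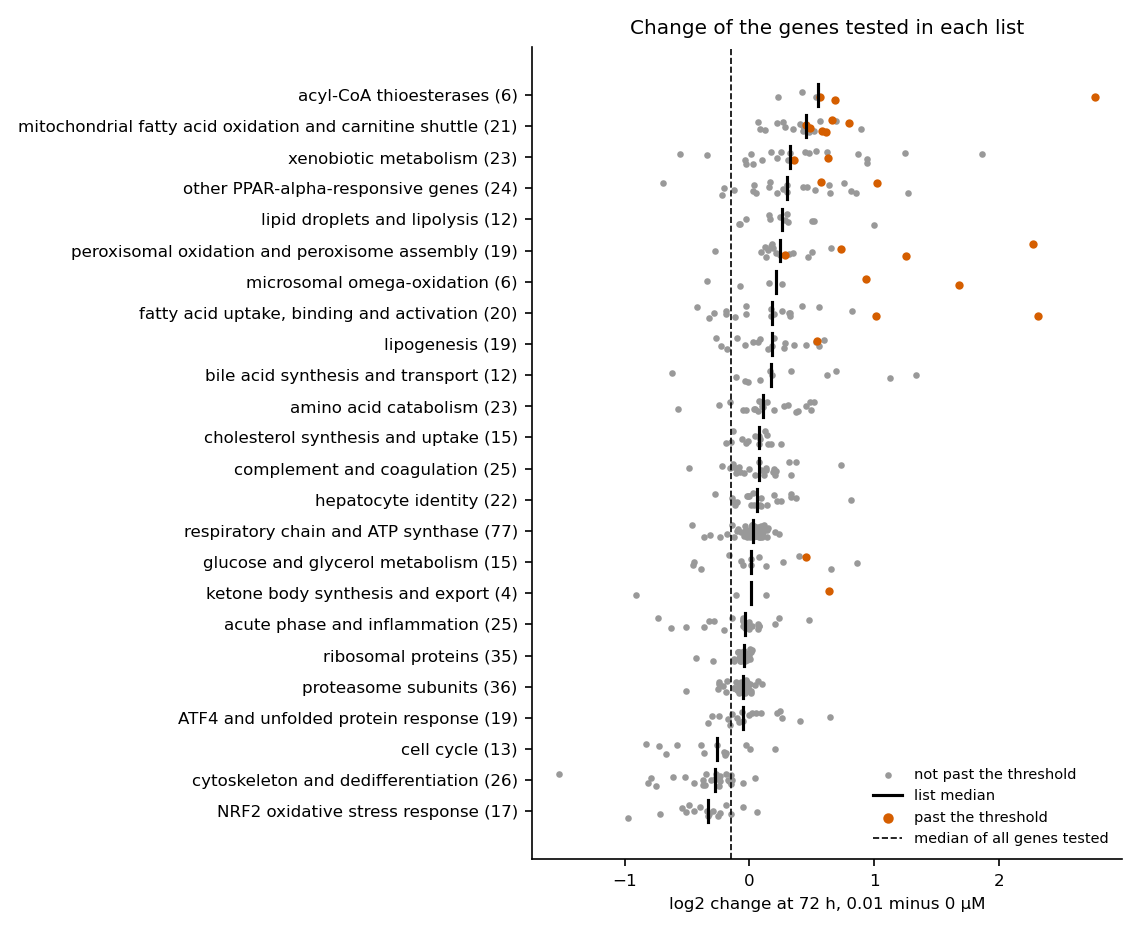
Log2 change at 72 h (0.01 minus 0 µM) of each gene tested, by list, with the number tested in brackets; orange points passed the threshold, bars are list medians and the dashed line is the median of all genes, -0.14. Of the lists drawn, thioesterases (0.55) and mitochondrial oxidation (0.45) have the highest medians, and NRF2 response (-0.33), cytoskeleton (-0.27) and cell cycle (-0.26) the lowest.

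Other liver functions gave no call without the block. None of 22 hepatocyte identity genes passed (median 0.06), nor did any of 25 acute phase genes (-0.04), 15 of cholesterol synthesis and uptake (0.08), 12 of bile acids (0.17), 12 of lipid droplets (0.27), 35 ribosomal proteins (-0.04) or 77 of the respiratory chain and ATP synthase (0.03). Cyp8b1, the sterol hydroxylase of cholic acid synthesis, was 2.18-fold higher, from 6.10, 5.51, 6.25 and 4.49 to 6.75, 6.63, 7.0 and 6.46, without passing (adjusted p = 0.227; 0.0402 with the block). Abcc2, a canalicular exporter of the bile acid list, went the other way (log2 change -0.62 ± 0.37, adjusted p = 0.418; 0.0210 with the block). In the identity list Apob, the core protein of secreted lipoproteins, and Fah, of tyrosine breakdown, passed with the block, both higher (log2 changes 0.25 and 0.34, adjusted p = 0.337 and 0.227; 0.0177 and 0.0363 with the block). Cidea, a lipid droplet protein of fat cells, was 1.43-fold higher (adjusted p = 0.305; 2.64e-05 with the block), and Fitm2, which helps form lipid droplets, 1.42-fold (adjusted p = 0.360; 0.0307 with the block). Ndufc1, a subunit of respiratory complex I, differed by 0.24 (adjusted p = 0.345; 0.0148 with the block). With the block none of the acute phase, cholesterol or ribosomal protein genes passed.

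The lists with the lowest medians were the NRF2 response, the cytoskeleton and dedifferentiation, and the cell cycle. Of 26 genes of cytoskeleton and dedifferentiation, 21 (80.8%) were lower in each of the 4 rats, against 37.4% of all genes, and none passed (median -0.27). With a common 75th percentile the median was -0.03, against 0.10 for all genes. S100a6, a calcium-binding protein, had 9.66, 10.97, 9.93 and 10.07 at 0 µM and 7.63, 10.50, 8.44 and 7.96 at 0.01 µM. It differed by -0.47 in Rs628 and by -1.48 to -2.11 in the other rats (adjusted p = 0.248; 0.00926 with the block). Tubb6, a β-tubulin, differed by -0.44 (adjusted p = 0.344; 0.0243 with the block), and Tyms, thymidylate synthase of the cell cycle list, by -0.58 (adjusted p = 0.125; 0.0354 with the block). Of 17 NRF2 genes, 9 (52.9%) were lower in each rat (median -0.33; -0.08 with a common 75th percentile). Abcc4, an exporter of that list, differed by -0.98 (adjusted p = 0.178; 0.0420 with the block).

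Markers of other liver cells were low. Of 13 macrophage markers on the arrays 11 lay at or under 5 in all 8 arrays, as did 10 of 15 of stellate cells and fibroblasts, 8 of 9 of endothelium, 3 of 8 of bile ducts and 5 of 8 of fat cells. None of those tested passed without the block. The mean over the bile duct markers ranged from 4.19 to 5.78 at 0 µM and from 4.54 to 5.65 at 0.01 µM, and that of the 22 hepatocyte identity genes from 10.20 to 10.43 and from 10.32 to 10.55. In cultures of many cells, a change in the share of a cell type and in RNA per cell cannot be told apart.

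The neighbouring concentrations place these changes. The comparisons with 0 µM share the same 4 control arrays, and the direct tests share the arrays at 0.01 µM. At 0.001 µM no gene passed against 0 µM (limma; 101 at an unadjusted p below 0.05, and 0 with the block). The median log2 change of the 35 genes was 0.14 at 0.001 µM, 0.64 at 0.01 µM, 1.33 at 0.1 µM, 1.69 at 1 µM and 1.74 at 10 µM. These 35 were picked by their change at 0.01 µM against the same controls. Over all genes tested the median was -0.08, -0.14, -0.11, -0.06 and -0.04 in that order. The mean of Ehhadh was 7.88 at 0 µM, 8.43 at 0.001, 10.16 at 0.01, 12.14 at 0.1, 12.70 at 1 and 12.80 at 10 µM. That of Acot1 was 4.02, 3.67, 6.80, 11.43, 12.05 and 12.17 in the same order, the first pair under the floor, and that of Pdk4 8.33, 8.43, 9.61, 11.20, 12.47 and 12.61.

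**Figure D5:**
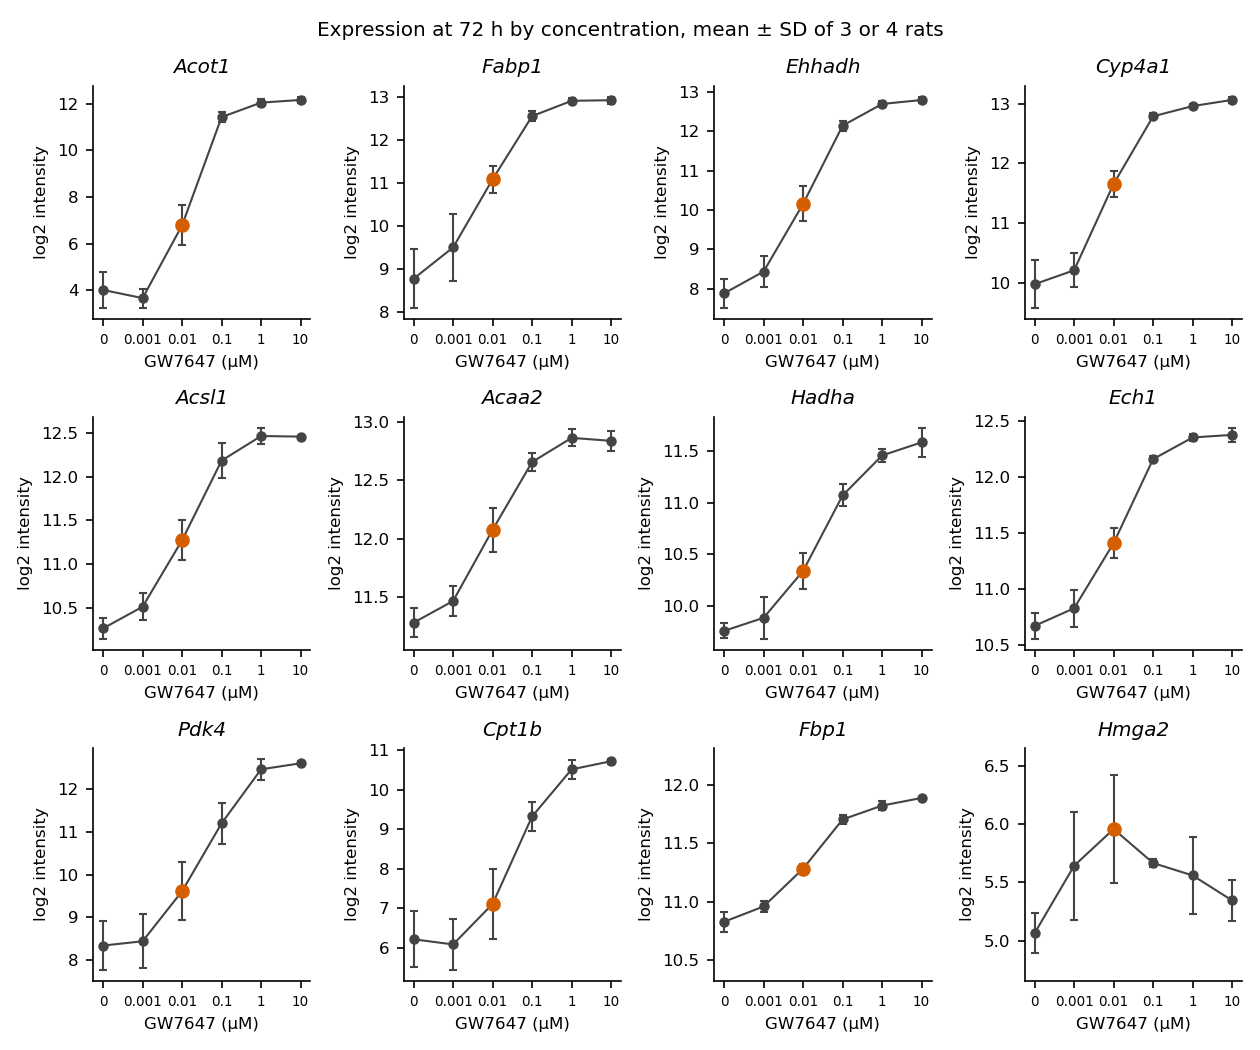
Mean log2 intensity at 72 h of 12 genes (y axes, which differ between genes) at 6 concentrations of GW7647 (x axis, evenly spaced categories), with SD over 3 or 4 rats; orange marks 0.01 µM. Most curves climb between 0.001 and 0.1 µM, as Ehhadh from 8.43 to 12.14, while Hmga2 has its highest mean at 0.01 µM (5.96).

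A direct test of 0.01 against 0.001 µM found 9 genes, all higher at 0.01 µM (0.102%). They were Ehhadh (1.72 ± 0.24, adjusted p = 7.85e-06), Cyp4a1 (1.45 ± 0.27, 0.00300), Acsl1 (0.76 ± 0.16, 0.0148), Acaa2, Eci1, Ech1, Acat1, Hadha and Acot1. Acot1 was under the floor in the arrays at 0.001 µM as at 0 µM, so that its difference was again at least 3.47-fold (3.12 ± 0.65 as measured, adjusted p = 0.00816). With the rat as a block there were 42, without Rs632 1 and without Rs631 3. A direct test of 0.1 against 0.01 µM found 70 genes higher (0.792%) and 16 lower (0.181%) at 0.1 µM, with 20 in all without Rs632, 487 with the block (291 and 196), and 32 higher and 14 lower with a common 75th percentile. Of the 35 genes that rose at 0.01 µM, 27 were higher again at 0.1 µM. Acot1 differed by 4.64 ± 0.70 between these 2 concentrations (adjusted p = 4.05e-06), Cpt1b by 2.21 ± 0.38 (7.10e-05), Ehhadh by 1.99 ± 0.26 (2.54e-07) and Cyp4a1 by 1.13 ± 0.29 (0.0234). Plin2, which did not pass at 0.01 µM, differed by 0.35 ± 0.08 (0.00800). Hmga2 and Mybpc2 differed by -0.29 and -0.30 (adjusted p = 0.927 and 0.956), and Nabp1 by -0.07 (0.989).

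At 24 h the same concentration gave 12 genes, all higher than at 0 µM (0.136%; 4 arrays at 0.01 µM and 3 at 0 µM). Of these, 10 were among the 35 of 72 h, which is 83.3% of the 12 and 28.6% of the 35. They included Ehhadh (1.79 ± 0.26, adjusted p = 2.62e-05), Cyp4a1 (1.49 ± 0.29, 0.00574), Acsl1 (0.83 ± 0.18, 0.0182) and Hadha (0.48 ± 0.09, 0.00663). The count at 24 h was 0 without Rs631, 3 without Rs632 and 37 with the block. Set directly against each other, the responses at 72 and 24 h differed in no gene (limma; 59 at an unadjusted p below 0.05, and 0 with the block). For Ehhadh that difference was 0.49 ± 0.36, and for Fabp1 0.65 ± 0.58.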

How the data were processed

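The authors deposited log2 intensities of 31139 probe sets, 1 column per array, from Affymetrix rat arrays hybridised with biotin-labelled RNA amplified with a 3′ kit, per the labels' protocols. The submitters' processing notes name GCRMA and Partek, and give neither their versions nor what each did. Values were used as deposited, with no pseudocount. Exactly 1 gene symbol was named for 19069 probe sets, several for 572 and none for 11498, and 18989 were matched by gene ID to the RefSeq gene table. A gene took its probe set with the highest mean. The number of arrays limits the precision.

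One limma 3.58.1 model (R 4.3.3) covered all 100 arrays with a mean for each of the 30 groups (70 residual degrees of freedom). Adjustment was over the 8843 genes tested in each comparison. The model was first run on simulated arrays that held no rat effect, so that run could not test the lack of a rat term. Figures were drawn with matplotlib 3.10.9. Errors are standard errors unless given as SD. A fold is given as a lower bound against 5 for a gene at or under 5 in a whole group. Per the labels, same-numbered samples come from 1 animal. What remained after subtracting the group mean correlated between the 2 arrays of a rat at 0.558, 0.861, 0.795 and 0.804 in Rs627, Rs628, Rs631 and Rs632. The primary model has no rat term, and block values stand beside the results they change for the genes that are named.

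The members and the gene lists, the rule for named genes and the alternatives were chosen with earlier results of these data known. The rule names up to 15 rises and falls by size, overall and after the scalings, up to 6 members of a list by p, list members that did not pass, known PPARα targets, and up to 6 genes by size of the other comparisons. Genes outside it (among them Agmo, Mpc2, Tmem205 and other rises of small size outside the lists) were named after their values were seen. Lists are described by counts and medians over the members tested. Alternatives were the rat block, the compared times alone, filters, a variance trend, 3 scalings, every probe set, 1.5-fold, leaving out repeated plate positions and each rat. No label names a plate, so no comparison was made within plates.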

Additional observations from a re-analysis of the deposited data

Results flagged for a closer look

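Single arrays lay far from the other 3 of their group in 6 of 154 sets of 4 arrays examined (a gap over the range above Dixon's 95% critical value, which chance exceeds in about 1 set in 20). At 0.01 µM and 72 h the 75th percentile was highest in Rs628 (6.95), Plin2 was lowest in Rs628 (12.14) and Wls, a carrier of Wnt proteins, was highest in Rs628 (5.36). At 0 µM and 72 h Cpt2, the inner carnitine palmitoyltransferase, was lowest in Rs628 (9.02), Cyp2c13, a cytochrome P450, was highest in Rs627 (7.80), and Serpine2, a protease inhibitor, was highest in Rs627 (4.84, under the floor of 5). Wls, Cpt2, Cyp2c13 and Serpine2 did not pass without the rat as a block.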

How the results depend on the processing

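The direction of the 35 rises and the 2 falls was the same under every alternative that gave a value for them. All 35 rises passed with the rat as a block, alone and with each scaling, and with an intensity trend. With the arrays of 72 h alone, 20 missed the threshold. Genes higher at 0.01 µM (35) numbered 115 with the block, 17 with the compared times alone, 68 with a common 75th percentile, 20 at 1.5-fold or more, 258 without repeated positions, and with the block 83 after median centring, 216 after quantile normalization and 411 with the common percentile; leaving out a rat gave 12 to 29. Genes lower (2) numbered 85 with the block, 0 with the compared times alone and with no filter, 1 with the filter at 7, the trend, quantile normalization, median centring, the common percentile and 1.5-fold, 743 without repeated positions, and with the block 96, 95 and 25 after the same scalings; leaving out a rat gave 0 to 20. Between 0.01 and 0.001 µM (9) the counts were 42 with the block, 3 with the common percentile, 5 without repeated positions, 29, 53 and 29 with the block and the scalings, and 1 to 6 without a rat. Between 0.1 and 0.01 µM (86) they were 487, 50 with the compared times, 46 with the common percentile, 55 at 1.5-fold, 160 without repeated positions, 402, 692 and 409 with the block and the scalings, and 20 to 85 without a rat. At 24 h (12) they were 37, 4 with the compared times, 2 with the common percentile, 6 at 1.5-fold, 38 and 41 with the block after median centring and quantile normalization, and 0 to 9 without a rat. Ppara, near the floor, ranged from -0.090 to 0.23 without a rat and was -0.074 without Rs627. The block with quantile normalization and with the common percentile were added after the data were seen. The cause of these differences was not tested. Fits on fewer arrays have fewer degrees of freedom, and the part of this in the counts was not tested either. Low signal limits genes near the floor.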

Other observations

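Further genes passed only with the rat as a block, and those named here were chosen after their values were seen. Among the higher ones, Serpine2, a secreted protease inhibitor, had 4.84, 4.22, 4.22 and 4.13 at 0 µM (all under 5) and 6.59, 5.92, 4.94 and 6.03 at 0.01 µM in Rs627, Rs628, Rs631 and Rs632 (at least 1.83-fold; adjusted p = 0.125 without and 0.00262 with the block). Sult2a6, a bile acid and steroid sulfotransferase, was 2.11-fold higher (1.08 ± 0.39; 0.304 and 0.00446), and Cyp2c13, a cytochrome P450, 2.38-fold (1.25 ± 0.45; 0.290 and 0.0415). Ephx2, the soluble epoxide hydrolase of fatty acid epoxides, was 1.87-fold higher, by 0.86 to 0.95 in the 4 rats (0.91 ± 0.28; 0.189 and 2.35e-06). Gpd1, the cytosolic glycerol-3-phosphate dehydrogenase, was 1.70-fold higher (0.76 ± 0.24; 0.209 and 0.00482).

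Among the lower ones, Il1r2, the decoy receptor of interleukin-1, had 8.24, 8.54, 5.56 and 9.79 at 0 µM and 6.34, 6.88, 3.77 and 7.35 at 0.01 µM. Its change was -1.89, -1.66, -1.80 and -2.45 in the 4 rats, and the groups overlapped because the rats differ in level (log2 change -1.95 ± 1.16; adjusted p = 0.415 without and 0.000124 with the block). Akr1b8, an aldo-keto reductase, had 6.58, 6.12, 5.62 and 6.11 at 0 µM and 4.60, 5.34, 4.72 and 5.05 at 0.01 µM (-1.18 ± 0.41; 0.274 and 0.0307).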
